A study of Mus musculus with 4 samples.

Results

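Cyp1a1 and 5 genes of the aryl hydrocarbon receptor (AhR) pathway, Cyp1b1, Ahr, Ahrr, Arnt and Tiparp, were followed in single endothelial cells (ECs) of the mouse left ventricle. They are 6 of 31253 gene identifiers in the count tables, of which 19963 had at least 1 unique molecular identifier (UMI). The members were picked by name. Cyp1a1 was of interest because of its difference between the diets across classes of cells and its level along the arterial markers, and the other 5 because of their place in the pathway, so the diet differences, class differences and arterial pattern of these genes are given as descriptions without a test.

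AhR, encoded by Ahr, is a transcription factor that binds small aromatic molecules, among them pollutants and tryptophan metabolites. Without a ligand it rests in the cytoplasm with HSP90 and partner proteins, and with a ligand it enters the nucleus, pairs with ARNT and binds short DNA elements with the core GCGTG. The P450 enzymes CYP1A1 and CYP1B1 oxidize such ligands and are its classical target genes, while the AhR repressor (Ahrr) and the ADP-ribosyltransferase TIPARP are targets that restrain the receptor in turn. ARNT is also the partner of the hypoxia-inducible factors, and in ECs Cyp1a1 is known to respond to shear stress as well.

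The 4 libraries were made with the 10x Genomics Chromium 3′ assay from RFP-positive left ventricular cells that had been isolated by FACS. The 2 NC libraries came from mice on the control ("Chow") diet with 10% of energy from fat, and the 2 HFpEF libraries came from mice given "HFD plus L-NAME", a diet with 60% of energy from fat and 0.5 mg/ml L-NAME, an inhibitor of nitric oxide synthases, in the drinking water, both for 20 weeks. All mice carried floxed Scarb1, the gene of the HDL receptor SR-B1, from a flox line made in C57BL/6N mice, with a tamoxifen-induced Cdh5-CreER, active in ECs, and a tdTomato reporter as the source of the RFP. In the study's design mice had either 1 or 2 floxed Scarb1 alleles. The paper's single-cell experiment compared 4 groups, each diet with 1 or 2 floxed alleles, and there are 4 libraries here. The 2 libraries of a diet may therefore be 1 of each genotype and not replicates of a group. The labels name the diet and no genotype, so genotype could not be separated here. Any SD or SE between libraries of a diet may include a genotype difference. The number of mice behind each library is not given in the sources used here. Nothing in those sources gives the preparation day of the libraries, so preparation and diet cannot be told apart. The values measure the spread between these libraries.

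The libraries held 5769 to 21685 cells each, and 40154 of the 41843 cells passed the study's filter. NC cells were deeper (medians of 3644 and 4035.5 UMIs per cell) than HFpEF cells (1699 and 1577), and 10 to 42 cell barcodes were shared between any pair of libraries. Cells were sorted into classes by summed UMIs of marker genes, which gave 3934 artery-like, 22690 capillary-like, 606 vein-like and 109 endocardial-like ECs and 1628 mural-like cells, called artery, capillary, vein, endocardial and mural below. None of the 6 general EC markers was at 0 in artery or capillary ECs. The 11 artery markers summed to 4001 to 4370 CPM (UMIs of a gene scaled to 1000000 UMIs of a class) in artery ECs and 505 to 614 CPM in capillary ECs. Both marker lists were used by the gates, so these values describe the classes and are no independent check of them. The endocardial cells also carried artery markers (2851 to 4760 CPM), and the mural cells carried EC markers (2589 to 2821 CPM against 4756 to 5325 CPM in capillary ECs). ECs with weaker markers (7328 cells, "other ECs") were kept apart.

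Promoter sequences of the 4 target genes are shown because these targets behaved differently in the data described below. They are from RefSeq (GRCm38.p6), 250 bases before to 50 bases after the start site, 300 bases 5′ to 3′ on the gene's strand, with each copy of the core GCGTG in capitals. A core on the other strand reads CACGC. Cyp1a1 is at chr9:57697363-57697662 on the plus strand, Cyp1b1 at chr17:79715012-79715311 on the minus strand, Ahrr at chr13:74292282-74292581 on the minus strand and Tiparp at chr3:65528197-65528496 on the plus strand.
Cyp1a1: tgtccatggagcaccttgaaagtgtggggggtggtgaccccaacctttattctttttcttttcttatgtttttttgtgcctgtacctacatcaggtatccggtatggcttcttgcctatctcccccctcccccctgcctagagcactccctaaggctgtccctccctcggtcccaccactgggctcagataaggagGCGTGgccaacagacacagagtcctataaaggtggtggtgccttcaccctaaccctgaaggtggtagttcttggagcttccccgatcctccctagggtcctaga
Cyp1b1: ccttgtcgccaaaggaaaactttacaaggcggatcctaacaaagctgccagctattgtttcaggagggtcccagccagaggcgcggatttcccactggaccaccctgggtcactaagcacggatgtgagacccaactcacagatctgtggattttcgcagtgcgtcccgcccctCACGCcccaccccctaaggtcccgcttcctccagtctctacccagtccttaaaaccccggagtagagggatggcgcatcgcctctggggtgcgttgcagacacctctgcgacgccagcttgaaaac
Ahrr: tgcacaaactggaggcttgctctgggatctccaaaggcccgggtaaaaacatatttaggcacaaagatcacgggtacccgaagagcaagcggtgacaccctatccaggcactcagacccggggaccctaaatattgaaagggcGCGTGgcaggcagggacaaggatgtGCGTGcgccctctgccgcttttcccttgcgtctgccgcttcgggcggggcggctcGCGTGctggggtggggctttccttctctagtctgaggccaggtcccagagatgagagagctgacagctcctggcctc
Tiparp: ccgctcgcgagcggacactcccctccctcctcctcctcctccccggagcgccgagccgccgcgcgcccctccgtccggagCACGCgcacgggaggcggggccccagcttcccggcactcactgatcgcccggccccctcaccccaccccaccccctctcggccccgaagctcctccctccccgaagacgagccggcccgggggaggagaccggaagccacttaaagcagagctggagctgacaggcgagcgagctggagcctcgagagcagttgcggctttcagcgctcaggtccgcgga

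The Cyp1a1 window held 1 core, at −54 from the start site. The Cyp1b1 window held 1 on the other strand at −76, and the Tiparp window 1 on the other strand at −170. Ahrr held 3, at −107, −82 and −27, and the last of these was also part of the only copy of the longer element TNGCGTG in the 4 windows. The Arnt promoter, not printed, held 1 core at −29, and 5 of the 6 members matched the table. Among 27025 promoters of the same length, 32.5% held the core on either strand, 11.2% held it 2 or more times and 5.12% held the longer element. A match is a description of the sequence, and elements farther upstream lie outside these windows.

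In the annotation of GRCm38 (GENCODE), Cyp1a1 (ENSMUSG00000032315) lies on chromosome 9 from 57687928 to 57703824, and its first annotated base is upstream of the RefSeq start used above. Cyp1b1 (ENSMUSG00000024087) lies on chromosome 17 from 79701537 to 79715061, Ahr (ENSMUSG00000019256) on chromosome 12 from 35497974 to 35535038 and Ahrr (ENSMUSG00000021575) on chromosome 13 from 74211118 to 74292331. Arnt (ENSMUSG00000015522) lies on chromosome 3 from 95434388 to 95497240 and Tiparp (ENSMUSG00000034640) on chromosome 3 from 65528410 to 65555518. Ahr overlaps the lincRNA Gm48236 and Tiparp the pseudogene 4931440P22Rik on the opposite strand. Arnt overlaps the pseudogene Gm42672 on its own strand, so that reads of these may be shared.

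Cyp1a1 was present in NC cells and nearly absent from HFpEF cells. Over all cells there were 1871 Cyp1a1 UMIs in the NC libraries and 75 in the HFpEF libraries, or 30.6 ± 0.930 CPM against 1.15 ± 0.321 CPM (mean ± SD, n = 2 libraries each), although the HFpEF libraries held more cells. The ratio was 23.7 (95% interval 18.8 to 30.2). This interval and those below cover counting error of UMIs only. Both HFpEF libraries lay below both NC libraries. The share of all genes without overlap was not computed over all cells, and within the classes it was 32.2% to 49.6%.

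**Figure D1:**
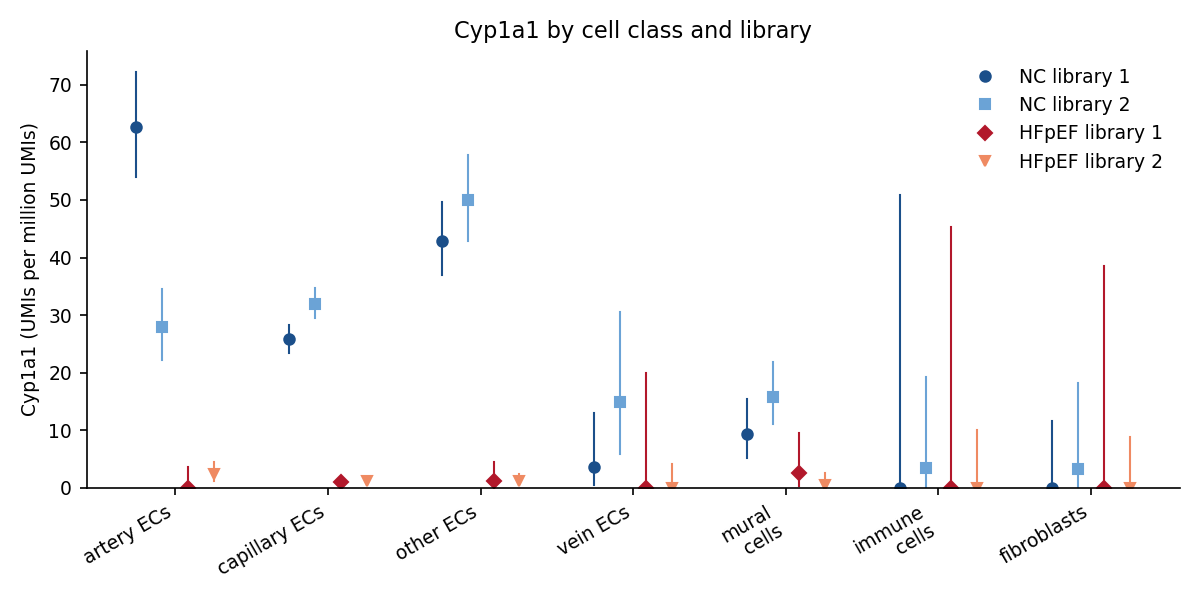
Cyp1a1 level in CPM for each class of cells and each library. Points are libraries and bars are 95% exact Poisson intervals, which cover counting error only. The NC libraries reach 62.6 CPM in artery ECs, and each HFpEF library stays at or below 2.65 CPM in every class drawn.

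In artery ECs, Cyp1a1 was at 62.6 and 27.9 CPM in the NC libraries (185 and 82 UMIs) and at 0 and 2.49 CPM in the HFpEF libraries (0 and 11 UMIs). The 2 NC libraries differed from each other by more than the HFpEF libraries did, and the diets did not overlap. With 2 libraries a diet, 42.8% of all genes in artery ECs did not overlap either, while edgeR called 0.0995% of them between the diets. A single HFpEF cell with 1978 UMIs in all carried 9 of the 11 UMIs, and without it HFpEF library 2 was at 0.453 CPM. The log2 difference of HFpEF from NC was −4.46 (SE 0.56), and NC exceeded HFpEF by a ratio of 22.3 (12.3 to 45.2). Without HFpEF library 2 the other HFpEF library has no UMI, and the fitted difference of −9.70 then depends on the prior count and is no bound.

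Capillary ECs gave the most UMIs. Cyp1a1 was at 25.8 and 32.0 CPM in NC (448 and 585 UMIs) and at 0.954 and 1.28 CPM in HFpEF (6 and 35 UMIs). The libraries of a diet were close to each other here, at 28.9 ± 4.35 against 1.11 ± 0.227 CPM, with no overlap (49.6% of all genes did not overlap and 0.14% were called). The log2 difference was −4.58 (SE 0.21) and the ratio 23.9 (17.5 to 33.4). In other ECs the levels were 42.9 and 49.9 CPM in NC against 1.23 and 1.27 CPM in HFpEF, with a ratio of 36.4 (20.6 to 71.1).

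In vein ECs, Cyp1a1 had 2 and 7 UMIs in NC (3.59 and 14.9 CPM) and 0 in both HFpEF libraries, with no overlap (39.6% of all genes did not overlap and 0.0% were called). Set against a floor of 3 UMIs over the HFpEF group, NC was at least 3.15-fold higher, and with the counting error of both groups the lower 95% limit of the ratio was 2.07. NC library 2 gave 7 of the 9 UMIs, and the 2 UMIs of NC library 1 alone allow no fold. Endocardial ECs had 1 UMI in NC and 0 in HFpEF, which allows no fold. Vein and endocardial ECs had too few Cyp1a1 counts to enter the fit across genes. In artery, capillary and mural cells, where it entered, Cyp1a1 had the lowest log2 difference of all genes, and the next genes were Klf15 in artery ECs at −2.68, Rnf212b in capillary ECs at −2.92 and Angpt1 in mural cells.

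Mural cells had 9.34 and 15.8 CPM of Cyp1a1 in NC against 2.65 and 0.464 CPM in HFpEF, with no overlap (41.6% of all genes did not overlap and 0.795% were called) and a log2 difference of −3.53 (SE 0.67), from 3 HFpEF UMIs in all and a ratio of 12.7 (4.12 to 63.8). Every one of these UMIs lay in mural cells that also held 2 or more UMIs of EC markers (51 in 582 NC cells and 3 in 784 HFpEF cells). Mural cells with 0 or 1 EC marker UMI, 80 in NC and 182 in HFpEF, had no Cyp1a1 UMI, where a floor of 3 UMIs stands at 17.4 CPM in NC and 11.2 CPM in HFpEF. At this depth the level of mural cells free of EC markers cannot be separated from the 13.7 CPM of the NC mural cells with EC markers. Lymphatic ECs had no Cyp1a1 UMI, and immune cells and fibroblasts had 1 each, both in NC library 2.

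Ordered by the NC mean, the levels were other ECs (46.4 ± 4.95 CPM), artery ECs (45.2 ± 24.5), capillary ECs (28.9 ± 4.35), mural cells (12.6 ± 4.58), vein ECs (9.22 ± 7.97) and endocardial ECs (2.81 ± 3.97; n = 2 libraries each). Other ECs and artery ECs did not differ beyond their spread, nor did artery and capillary ECs, since capillary ECs were at the higher level in NC library 2. The range of vein ECs overlapped those of mural cells and endocardial ECs. Within each NC library vein ECs lay below mural cells, narrowly in NC library 2, and above endocardial ECs, from 9 vein UMIs in all. Capillary ECs lay above these classes in both NC libraries. The endocardial mean rests on 1 UMI, so whether mural cells lay above endocardial ECs cannot be told. In a fit over class sums with the library as a term, artery ECs were 0.57 (SE 0.19) above capillary ECs on the log2 scale. This value was −0.17 without NC library 1 and −0.06 with a stricter gate, so the order of artery and capillary ECs rested on NC library 1. Vein ECs were at −1.86 (SE 0.55) and mural cells at −1.19 (SE 0.28) against capillary ECs.

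The share of cells with a Cyp1a1 UMI was small even in NC. It was 9.95% of 1468 NC artery ECs (95% exact binomial interval 8.46 to 11.6) and 6.80% of 8018 NC capillary ECs (6.26 to 7.37), against 0.122% of 2466 and 0.211% of 14672 HFpEF cells. After each cell was thinned to 1000 UMIs, which left out 46 and 249 shallow NC cells and 429 and 2447 shallow HFpEF cells, the shares were 4.08% of artery and 2.47% of capillary ECs in NC and 0.0491% and 0.131% in HFpEF. In lymphatic ECs, immune cells and fibroblasts, which gave the background, the thinned share was 1.08% in NC (2 of 185 cells; 2 of 192 cells or 1.04% unthinned, interval 0.126 to 3.71) and 0 of 383 cells unthinned in HFpEF. Median depths in NC were 3508 UMIs for artery ECs, 3972 for capillary ECs and 5950.5 for these background cells. In HFpEF they were 1647, 1766 and 2395 UMIs. The NC background rests on 2 cells, and after thinning its interval (0.131 to 3.85) overlaps those of NC artery (3.11 to 5.24) and capillary ECs (2.14 to 2.84), whereas the unthinned intervals do not overlap.

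Few cells carried much of the Cyp1a1 RNA. In artery ECs 12.0% and 7.39% of the cells of the NC libraries had a UMI, where 19.9% and 11.4% would be reached if the UMIs fell evenly by depth. In capillary ECs the shares were 6.14% and 7.48% against 10.2% and 13.6%. Cells with 5 or more UMIs numbered 9 and 2 among artery ECs and 15 and 22 among capillary ECs, and they held 28.1%, 17.1%, 22.1% and 23.2% of the UMIs of these classes and libraries. The most in a cell was 8 and 9 UMIs in artery and 12 and 10 in capillary ECs.

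Other values moved with the diet beside Cyp1a1. Summed red cell markers (4 of 4 detected) were at 607 and 361 CPM in NC capillary ECs and 1110 and 3404 CPM in HFpEF, and at 1.35 and 2.04 against 245 and 215 CPM in artery ECs. Cardiomyocyte markers (4 of 4 detected) were at 225 CPM in capillary ECs of HFpEF library 1 against 53.6 to 75.6 CPM in the other libraries. Without cells that held 1% or more hemoglobin UMIs the log2 difference of Cyp1a1 was −4.46 in artery and −4.56 in capillary ECs. With every cell thinned to 1000 UMIs it was −4.34 and −4.52. Random thinning keeps the expected share of a gene in a cell, so these values are no test of depth. Heat shock genes (6 of 6 detected, named below) summed to 10064 and 7330 CPM in NC against 16852 and 18802 CPM in HFpEF capillary ECs, and to 11237 and 7011 against 17276 and 19426 CPM in artery ECs. The part of cardiomyocyte RNA and of heat shock in the result was not tested.

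Along the arterial markers Cyp1a1 did not rise steadily in NC cells. Artery, capillary and other ECs were thinned to 1000 UMIs and grouped by the number of UMIs from the 11 artery markers. Cells without an artery marker UMI had 22.3 and 29.4 CPM of Cyp1a1 in the 2 NC libraries. Cells with 3 had 68.8 and 53.9 CPM (28 UMIs in 407 and 18 UMIs in 334 cells), the highest group in each NC library. Cells with 7 or more had 23.8 and 19.8 CPM, but these rest on 2 UMIs in 84 cells and 2 UMIs in 101 cells. On the log2 scale, cells with 3 or 4 artery marker UMIs exceeded cells with 0 by 1.47 and 0.75, and cells with 7 or more lay below those with 3 or 4 by −1.38 and −1.30. HFpEF library 1 had at most 1.85 CPM in any group. HFpEF library 2 stayed at or below 3.26 CPM except for 15.1 CPM in cells with 4 artery marker UMIs, which came from 7 UMIs in 2 cells.

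**Figure D2:**
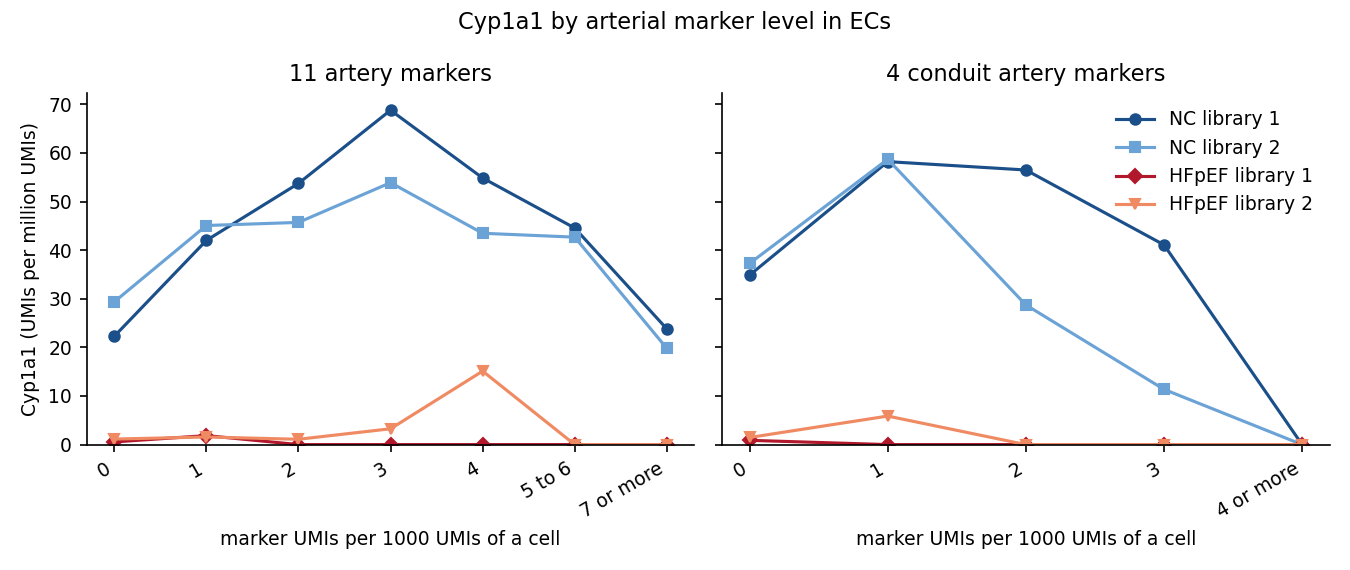
Cyp1a1 level in CPM after thinning each cell to 1000 UMIs, by the number of artery marker UMIs of the cell (left, 11 markers; right, the 4 conduit artery markers). Lines are libraries and groups of under 20 cells are not drawn. In both NC libraries the level is highest at 3 artery marker UMIs and falls off toward 7 or more, and it is 0 at 4 or more conduit marker UMIs.

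Grouped instead by 4 markers of conduit arteries (Gja5, Bmx, Stmn2 and Fbln5), NC cells with 0 of these UMIs had 34.9 and 37.3 CPM of Cyp1a1 and cells with 1 had 58.2 and 58.7 CPM. Cells with 2 had 56.5 and 28.7 CPM, and cells with 3 had 41.1 and 11.4 CPM, from 3 UMIs and 1 UMI. None of the 113 NC cells with 4 or more had a Cyp1a1 UMI, where a floor of 3 UMIs stands at a share of 2.65% of cells with a UMI and 26.5 CPM over both libraries. By library the floors are 73.2 CPM (41 cells) and 41.7 CPM (72 cells), above the level of cells without a conduit marker UMI, so neither NC library alone shows a lower level in these cells. Grouped without thinning by artery marker UMIs per 10000, the highest group in NC library 1 was at 79.8 CPM (30 to 40 per 10000). In NC library 2 it was at 53.1 CPM (10 to 20). The position of the peak thus differed between the libraries. The group at 70 or more was lowest in each, at 8.32 and 0 CPM, but from 1 UMI in 38 cells and 0 UMIs in 63 cells. Both counts are under the floor of 3 UMIs, so the place of this group rests on few UMIs. With the artery markers other than the 4 conduit markers, thinned cells of NC library 1 were highest at 4 marker UMIs (65.5 CPM from 11 UMIs). Those of NC library 2 were highest at 5 to 6 (92.0 CPM from 8 UMIs). The peak at 3 therefore depended on the set of markers.

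The other members were followed over the same groups. Pooled over the NC libraries, Ahr lay between 45.9 and 60.4 CPM from 0 to 4 artery marker UMIs. It was at 21.9 CPM at 5 to 6 (8 UMIs) and at 70.3 CPM at 7 or more (13 UMIs), so it had no peak at 3. Arnt was at 32.3 CPM at 0, between 39.1 and 52.3 CPM from 1 to 6 and at 32.4 CPM at 7 or more. The ends did not stand apart in NC library 1 (41.7 CPM at 0 and 47.6 CPM at 7 or more). The pooled group at 7 or more rests on 6 Arnt UMIs in 185 cells. The interval of its share of cells with a UMI (3.24%, 1.20 to 6.93) includes the share of each other group, so a shape like that of Cyp1a1 cannot be told. Tiparp ranged from 44.5 to 68.9 CPM in NC and from 69.99 to 115.7 CPM in HFpEF when pooled. The ranges of single libraries overlapped, since HFpEF library 1 was at 49.6 CPM at 0 and NC library 1 reached 89.1 CPM at 5 to 6.

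A further comparison asked what accompanies Cyp1a1 from cell to cell. It was not itself used to choose the genes. Cyp1a1 was of interest for its level along the artery markers, so artery markers and genes that vary with them are not independent of that choice. Within each library, UMIs of cells with a Cyp1a1 UMI after thinning (35 and 23 NC artery ECs, 89 and 103 NC capillary ECs) were summed. They were set against the other cells of the class (739 and 625, 3868 and 3709). HFpEF libraries added 0 and 1 artery and 3 and 13 capillary ECs with a UMI. edgeR's quasi-likelihood test with the library as a term and Benjamini-Hochberg adjustment called 2 of 5178 genes (0.0386%) in artery ECs and 10 of 9116 (0.11%) in capillary ECs. The genes named here were chosen after their values were seen, since no gene could meet the fixed rule of the same direction in all 4 libraries.

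In artery ECs, Mgp, a matrix protein of large arteries, fell by 10.43 on the log2 scale (SE 1.85, edgeR adjusted p = 9.1e-05). It had 0 UMIs in cells with Cyp1a1 in both NC libraries, where 21.2 would be reached at the level of the other cells, which had 192 and 569.6 CPM. The fitted size depends on the prior count, and the call was lost without NC library 1 (edgeR adjusted p = 0.551), without NC library 2 (edgeR adjusted p = 0.786) and with DESeq2 (adjusted p = 0.875). The other called gene, Rasl11a, rose by 2.51 (SE 0.51, edgeR adjusted p = 0.037), but from 10 UMIs in NC library 1 and 1 in NC library 2, and its value was 0.30 without NC library 1. Without HFpEF library 2 it was not called either (edgeR adjusted p = 0.314). At 2000 UMIs per cell 19 genes were called. Of these, 3 were higher beside Cyp1a1: Timp4 (0.98), Acer2 (1.07) and Lpl (0.68). The 16 lower genes included Mgp (−4.84), Clu (−3.65), Fbln5 (−0.97) and Gja4 (−1.80). The heat shock gene Hspa1a was lower too, at 2209 and 1048 CPM in NC cells with Cyp1a1 against 3517 and 1824 CPM in the others. The rest of the lower genes were Atf3, Nr4a1, Mt1, Ccn3, Emp1, Fxyd5, Gkap1, Gprc5a, Lmna, Pi16 and S100a6. Fbln5 and Gja4 are artery markers and Timp4 is a capillary marker of the gates. Their values restate the arterial pattern for which Cyp1a1 was chosen and are no separate result. Mgp, as a gene of large arteries, may vary with these markers, so its fall cannot be taken as a separate result either. Among the genes named here Mgp alone was called at 1000 and at 2000 UMIs, but at 500 UMIs per cell its value reversed to 1.53, where 0 genes were called. At 1000 UMIs DESeq2 called 0 genes.

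In capillary ECs, Rbp7, a retinol-binding protein of capillaries, was at 2865 and 1544 CPM in NC cells with Cyp1a1 and 1430 and 1164 CPM in the others (log2 0.67, SE 0.12, edgeR adjusted p = 0.000113), and its value was −0.07 with TMM scaling. Cd34, a sialomucin of capillaries and tip cells, was at 180 and 155 CPM against 330 and 352 CPM (−1.08, SE 0.26, edgeR adjusted p = 0.0342), and its value reversed to 0.025 at 500 UMIs per cell. Tmsb10, Vim and Tmod3, which encode an actin-binding thymosin, vimentin and a tropomodulin, were lower beside Cyp1a1 too. Tmsb10 was at 685 and 456 against 1052 and 854 CPM, Vim at 595.5 and 505 against 962.5 and 817 CPM, and Tmod3 at 78.65 and 146 against 274 and 285 CPM, each with an edgeR adjusted p of 0.0389. Rbp7, Cd34, Tmsb10, Vim and Tmod3 were not called without NC library 1 (edgeR adjusted p = 0.846 for each) or without NC library 2 (0.628 for Rbp7 and 0.822 for the others), nor with DESeq2 (0.487), and Cd34 was not without HFpEF library 2 (0.0605). Noa1 (2.71), with 1 and 10 UMIs beside Cyp1a1, was at 0.22 without NC library 2, and Rgs16 (−2.95), with 1 UMI in each NC library, was not called when any 1 library was left out. The other 3 called genes were the hemoglobin genes Hbb-bs, Hba-a1 and Hba-a2, at 0 UMIs beside Cyp1a1. Among cells without Cyp1a1, 98.6% of 2382 hemoglobin UMIs lay in 11 of 7577 NC cells and 98.5% of 27346 in 157 of 12209 HFpEF cells.

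None of the other members was called with Cyp1a1. The log2 difference of Ahr between cells with and without a Cyp1a1 UMI was 0.10 in artery ECs (95% interval −1.38 to 1.58, edgeR adjusted p = 0.996) and 0.50 in capillary ECs (−0.27 to 1.26, edgeR adjusted p = 0.837). Arnt differed by −0.55 (−2.24 to 1.13, edgeR adjusted p = 0.940) and 0.26 (−0.73 to 1.25, edgeR adjusted p = 0.950). Tiparp differed by −0.65 (−2.34 to 1.04, edgeR adjusted p = 0.929) and −0.38 (−1.38 to 0.62, edgeR adjusted p = 0.933). The intervals are wide, and each includes a difference of 1 log2 unit in at least 1 direction. Cyp1b1 and Ahrr had too few UMIs for this test.

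The receptor gene Ahr was detected in every class and did not follow Cyp1a1 between the diets. In artery ECs it was at 38.6 and 41.15 CPM in NC against 46.2 and 47.3 CPM in HFpEF. The log2 difference of Ahr was 0.25 (SE 0.15) with no overlap (42.8% of all genes did not overlap there). In capillary ECs it was at 52.9 and 68.8 against 75.05 and 60.4 CPM, 0.16 (SE 0.16), and the diets overlapped. Vein ECs had the opposite order, at 75.35 and 97.7 against 70.15 and 70.3 CPM, −0.30 (SE 0.26). Mural cells had 21.2 and 23.3 against 30.5 and 24.1 CPM, 0.25 (SE 0.26). The diets did not overlap in vein and mural cells either, as for 39.6% and 41.6% of all genes there. The direction thus differed between classes, and each difference was under 2 SE. Thinned to 1000 UMIs, the artery difference was −0.16.

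Across classes, Ahr was lower in artery than in capillary ECs by −0.60 (log2, SE 0.09) and in mural cells by −1.49 (SE 0.12), and higher in vein ECs by 0.25 (SE 0.13). Endocardial ECs were at −1.25 (SE 0.33) against capillary ECs, from 11 Ahr UMIs in NC and 3 in HFpEF (32.1 ± 18.2 against 11.3 ± 15.9 CPM, with overlap). Fibroblasts had 0, 6.51, 10.4 and 11.95 CPM in NC library 1, NC library 2, HFpEF library 1 and HFpEF library 2. They were lowest in NC, and in HFpEF they could not be ordered against endocardial ECs. In mural cells with 0 or 1 EC marker UMI, Ahr had 1 UMI in each diet, at 5.79 CPM (0.147 to 32.3) in NC and 3.75 CPM (0.0949 to 20.9) in HFpEF, against 23.2 and 28.0 CPM in mural cells with more. The NC interval includes the level of the other NC mural cells, so the 2 sets cannot be separated there, and the part of EC RNA in the Ahr level of mural cells was not tested. Tiparp was at 122 (75.3 to 186) and 150 CPM (107 to 204) in mural cells with 0 or 1 EC marker UMI and 87.1 and 123 CPM in the rest.

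**Figure D3:**
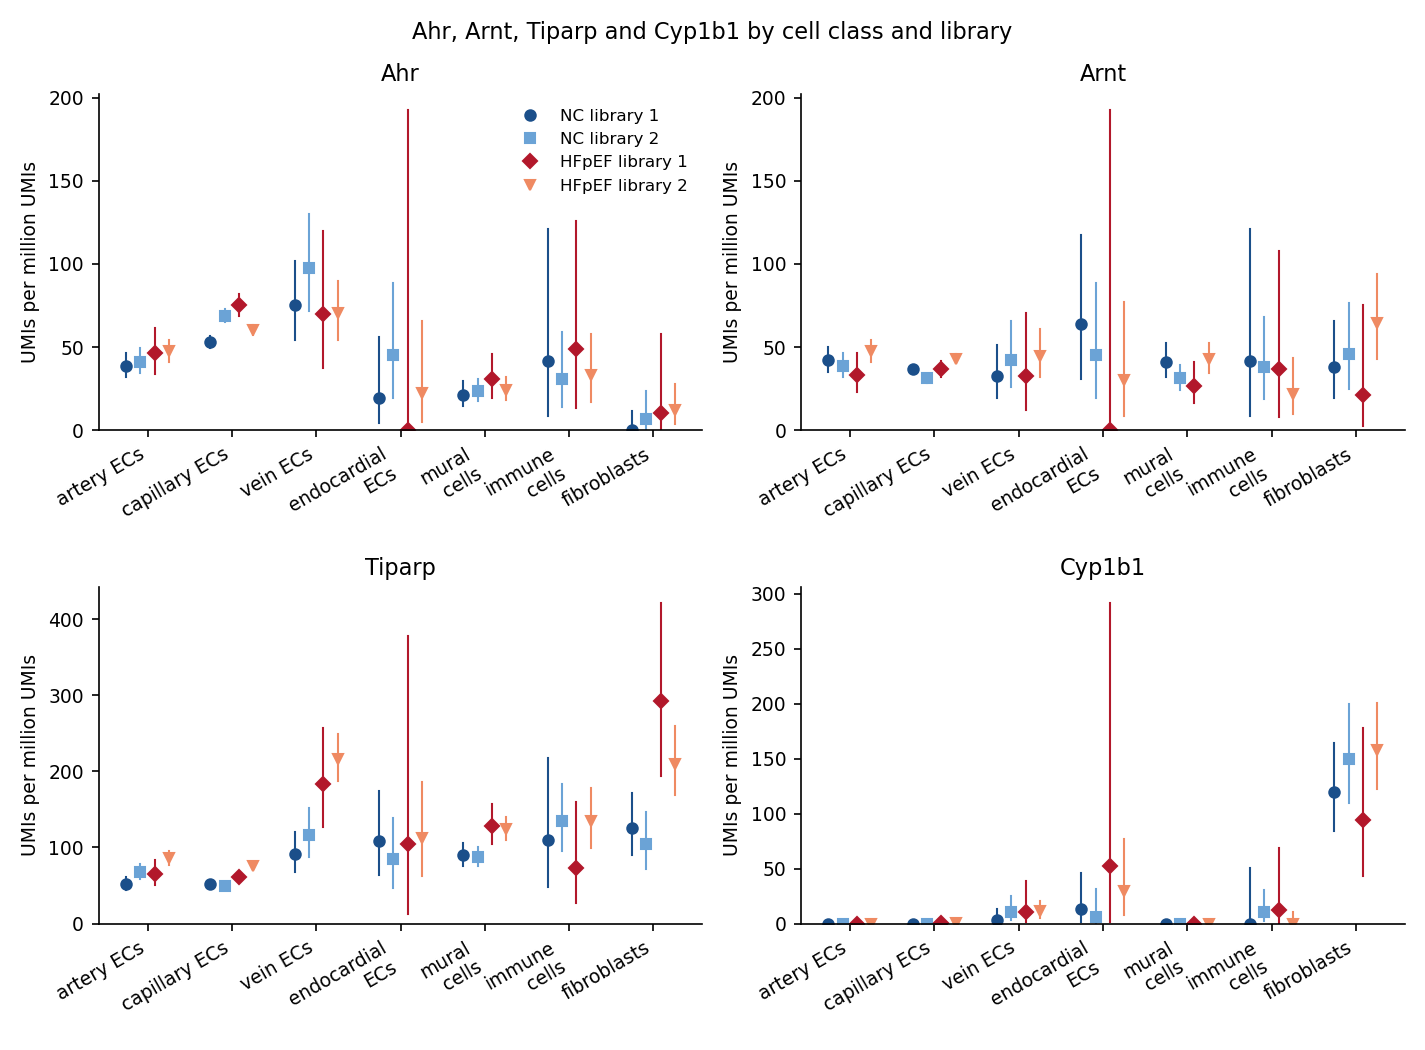
Levels in CPM of Ahr, Arnt, Tiparp and Cyp1b1 by class of cells and library. Points are libraries and bars are 95% exact Poisson intervals, which cover counting error only. Cyp1b1 is at 93.8 to 157.7 CPM in fibroblasts and at or near 0 in artery, capillary and mural cells, and Tiparp is higher in both HFpEF libraries in vein and mural cells.

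Arnt, the partner of AhR in the nucleus, differed little between the diets in the classes with many cells. In artery ECs it was at 42.0 and 38.4 CPM in NC against 33.1 and 47.3 CPM in HFpEF, 0.10 (log2, SE 0.18). In capillary ECs it was at 36.5 and 31.05 against 36.7 and 43.0 CPM, 0.26 (SE 0.13). The diets were separated by a narrow gap there, and 49.6% of all genes did not overlap. Vein ECs had 32.3 and 42.5 against 32.4 and 44.7 CPM, and mural cells 41.1 and 31.2 against 26.5 and 42.7 CPM, with overlap in each. The 109 endocardial ECs had 64.0 and 44.9 CPM in NC against 0 and 30.01 CPM in HFpEF (18 and 4 UMIs), without overlap, as 32.2% of all genes in this class, and with a ratio of 2.05 whose lower limit was 0.676. Against capillary ECs the log2 differences of artery, vein, endocardial and mural cells were 0.09, −0.02, 0.15 and −0.11, about the size of their SEs (0.10, 0.17, 0.31 and 0.11) or smaller.

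The mean level of Tiparp was higher in HFpEF in most classes but not in immune cells, against the direction of Cyp1a1. In vein ECs it was at 91.5 and 117 CPM in NC against 183 and 217 CPM in HFpEF (106 and 228 UMIs in all), a log2 difference of 0.97 (SE 0.22). In mural cells it was at 90.3 and 87.5 against 129 and 124 CPM, 0.53 (SE 0.17), and in capillary ECs at 52.7 and 49.9 against 61.9 and 75.6 CPM, 0.44 (SE 0.12). The diets did not overlap in these 3 classes, which also held for 39.6%, 41.6% and 49.6% of all genes in vein, mural and capillary cells. They overlapped in artery ECs, at 52.1 and 67.7 against 65.3 and 86.1 CPM, 0.40 (SE 0.18), and in endocardial ECs, where the levels were 109 and 84.3 against 105 and 113 CPM. Fibroblasts, which are not ECs, had 126 and 104 CPM in NC against 292 and 210 CPM in HFpEF. The share of all genes without overlap was not computed for fibroblasts. Immune cells went the other way, at 122 ± 17.1 CPM in NC against 104 ± 43.1 CPM in HFpEF, with overlap. Lymphatic ECs overlapped too, at 49.6 ± 5.15 against 83.6 ± 59.5 CPM. Against capillary ECs, Tiparp was higher in vein ECs by 1.24 (log2, SE 0.12), in mural cells by 0.72 (SE 0.09) and in endocardial ECs by 0.65 (SE 0.24), whereas artery ECs were at 0.12 (SE 0.09).

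Cyp1b1, the other P450 gene of the group, was highest in fibroblasts, where Cyp1a1 had 1 UMI. In NC vein ECs the 2 genes were at like levels, with 7 UMIs of Cyp1b1 and 9 of Cyp1a1. It had no UMI in artery or mural cells and 10 UMIs in 22690 capillary ECs. Fibroblasts had 119.6, 149.7, 93.8 and 157.7 CPM in NC library 1, NC library 2, HFpEF library 1 and HFpEF library 2, and 84 UMIs in NC against 75 in HFpEF. Of the fibroblasts of these libraries, 38.3%, 42.0%, 15.15% and 32.2% had a Cyp1b1 UMI. These shares are not thinned, at median depths of 6487, 6211, 2436 and 2673 UMIs, so they cannot be compared between the diets. Among ECs, vein ECs had 3.59, 10.6, 10.8 and 11.2 CPM (2, 5, 2 and 10 UMIs), and endocardial ECs had 8 UMIs. In the fit over class sums, vein ECs exceeded capillary ECs by 5.64 (log2, SE 0.67) and endocardial ECs by 6.64 (SE 1.01). Over all cells, Cyp1b1 had 126 UMIs in NC and 122 in HFpEF, a ratio of 0.980 (0.758 to 1.27), in contrast to the ratio of 23.7 for Cyp1a1. The classes that hold most UMIs of the 2 genes differ, so the ratios are mostly not of the same cells.

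Ahrr was close to the limit of detection, with 13 UMIs in NC and 9 in HFpEF over all 40154 cells. Capillary ECs had 5, 2, 0 and 5 UMIs in NC library 1, NC library 2, HFpEF library 1 and HFpEF library 2, and artery ECs had 2, both in HFpEF library 2. At this depth a difference between diets or classes was not detectable. Cyp1b1 and Ahrr entered no fit between the diets, and Ahr and Arnt did not enter that of endocardial ECs.

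The rest of the pathway was followed with 43 genes in 8 lists. Of all genes, edgeR's test called 10 of 10046 between the diets in artery ECs (0.0995%), 17 of 12166 in capillary ECs (0.14%), 0 of 6294 in vein ECs (0.0%), 0 of 2620 in endocardial ECs (0.0%) and 79 of 9932 in mural cells (0.795%). In vein and endocardial ECs 551 and 118 genes had an unadjusted p under 0.05, and DESeq2 called 1 and 0. In artery, capillary and mural cells 1106, 2164 and 1103 of all genes in the edgeR fits had an unadjusted p under 0.05. There DESeq2 called 16 of 15387, 202 of 18127 and 23 of 15527 genes. Of the listed genes that entered the fits, edgeR called 0 of 28 in artery ECs (7 at an unadjusted p under 0.05; DESeq2 called 1), 0 of 31 in capillary ECs (13; DESeq2 4), 0 of 29 in vein ECs (6; DESeq2 0), 0 of 19 in endocardial ECs (1; DESeq2 0) and 2 of 27 in mural cells (7; DESeq2 1).

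**Figure D4:**
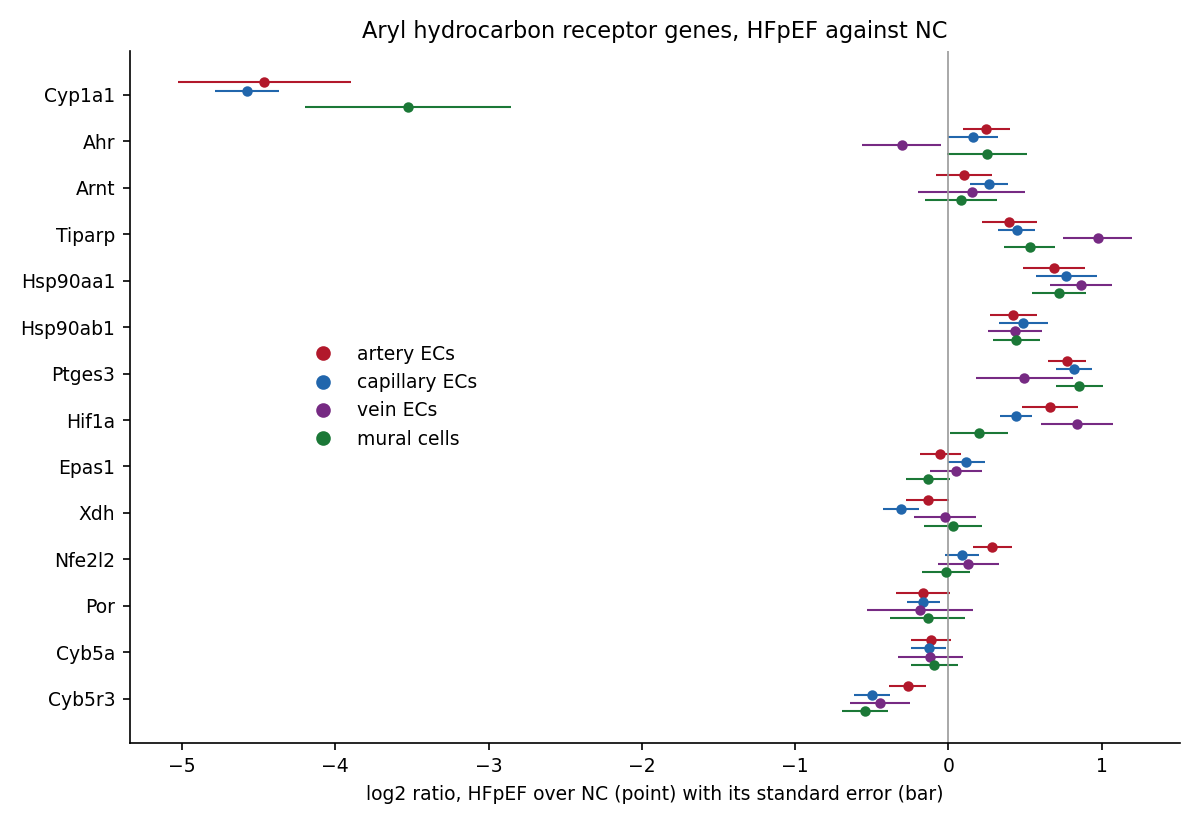
Log2 difference of HFpEF from NC for members and pathway genes in artery, capillary, vein and mural cells. Points are edgeR estimates and bars are standard errors. Cyp1a1 lies between −3.53 and −4.58 where it entered the fit, and the other genes drawn lie within 1 log2 unit of 0.

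Hsp90aa1, which encodes a form of HSP90, and Ptges3, which encodes its partner p23, belong to the proteins that hold AhR in the cytoplasm, and they were the 2 genes called in mural cells. Ptges3 rose from 169 and 168 CPM to 266 and 325 CPM (log2 0.85, SE 0.15, edgeR adjusted p = 0.0048), and Hsp90aa1 rose from 2360 and 1472 CPM to 2964 and 3229 CPM (0.72, SE 0.17, edgeR adjusted p = 0.0461). Ptges3 was not called without HFpEF library 2 (edgeR adjusted p = 0.0553), and Hsp90aa1 was at 0.41 without NC library 2 (edgeR adjusted p = 0.333) and was not called by DESeq2 (adjusted p = 0.622). With cells thinned to 1000 UMIs neither was called (edgeR adjusted p = 0.123 and 0.156). Ptges3 differed by like amounts without a call in artery ECs, at 175 and 168 against 272 and 305 CPM (0.77, edgeR adjusted p = 0.067), and in capillary ECs, at 154 and 145 against 237 and 284 CPM (0.82, edgeR adjusted p = 0.058). Hsp90aa1 differed by 0.69 in artery (edgeR adjusted p = 0.276), 0.77 in capillary (edgeR adjusted p = 0.138) and 0.86 in vein ECs (edgeR adjusted p = 0.179), none of which passed the test. HSP90 and p23 serve many client proteins besides AhR. Other heat shock genes moved with the diet beside them: 6 of 6 (Hspa1a, Hspa1b, Hspa8, Hspb1, Hsph1 and Dnajb1, a list added after the data were seen) were detected in each library, and they summed to 10785 and 7383 CPM in NC against 16747 and 20250 CPM in HFpEF mural cells. Their part in the 2 calls was not tested.

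Among the other partners of ARNT, Hif1a was at 52.0 and 53.1 CPM in NC against 70.75 and 70.6 CPM in HFpEF capillary ECs (0.44, edgeR adjusted p = 0.119) and differed by 0.66 in artery ECs (edgeR adjusted p = 0.249). Neither passed the test, and the medians of the 2 ARNT partners in the fits, Hif1a and Epas1, were 0.31 in artery, 0.28 in capillary and 0.45 in vein ECs. Of 9 other known AhR target genes only 2, 3 and 3 entered the fits of artery, capillary and vein ECs, 1 of them at an unadjusted p under 0.05 in each class and 0 called by edgeR, with medians of 0.08, 0.04 and −0.02. Xdh (xanthine dehydrogenase) was at 437 and 405 against 356 and 316 CPM in capillary ECs (−0.31, SE 0.12, edgeR adjusted p = 0.235), and Nqo1, a quinone reductase, was at 2.94 and 4.32 against 4.45 and 3.32 CPM (0.04, SE 0.29). Aldh3a1, Ugt1a6a, Ugt1a6b and Gsta1 had no UMI in capillary ECs. Of the genes that pass electrons to P450 enzymes, Cyb5r3 was at 333.5 and 286 against 219 and 215 CPM there (−0.50, SE 0.12, edgeR adjusted p = 0.127).

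Between artery and capillary ECs edgeR called 27.2% of 9982 genes, and of the 30 listed genes in that fit 6 were higher and 5 lower in artery ECs. Epas1, the HIF-2α gene, rose by 0.84 (SE 0.08, edgeR adjusted p = 6.2e-11) and the coactivator gene Ncoa1 by 0.49. Nfe2l2, Cyb5r3, Nos3 and Klf2 rose by 0.30, 0.44, 0.26 and 0.20, and the last of these, a flow-induced factor, was near the threshold (edgeR adjusted p = 0.0497). Without HFpEF library 2, Klf2 and Nos3 were not called (edgeR adjusted p = 0.313 and 0.0925), and without NC library 2 Klf2 and Cyb5a were not (0.215 and 0.117). Klf2 was also not called without NC library 1 (0.199), nor Nos3 and Cyb5a without HFpEF library 1 (0.0663 and 0.0506). Xdh (−0.80), Cyb5a (−0.20) and the HIF target genes Adm (−2.14), Egln3 (−1.30) and Ankrd37 (−0.75) were lower. Neither Ptges3 nor Hsp90aa1 was called in this comparison, and with cells thinned to 1000 UMIs 5 listed genes were called in place of 11.

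By Pearson's r of log2 levels over the 20 class sums (5 classes in 4 libraries), the genes of 6024 ranked that were most like Cyp1a1 were Gnb2 (0.82), Mxd4 (0.80), Id3 (0.77), Snapc5 (0.75), Dctn2 (0.73) and Selenow (0.73). The 5 points of a library share that library and its depth, so these are descriptions. In artery ECs Gnb2 was at 502 and 500.3 CPM in NC against 393 and 434 CPM in HFpEF, and Mxd4 was at 480 and 419 against 298 and 332 CPM. Class differences were of like size, as Mxd4 was at 269 and 267 CPM in NC vein ECs and 230 and 258 CPM in NC endocardial ECs.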

How the data were processed

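The deposited values are UMI counts per gene and cell of 4 libraries (2 NC, 2 HFpEF), which the authors made with fastp and Cell Ranger 5.0.1 on mm10 with Ensembl genes. The paper describes downsampling by mapped reads per cell on the way to its aggregated matrix. Whether the counts used here were downsampled is not stated. The counts are not divided by library size. No column was left unused. The study's cell filter (over 200 genes, under 20% mitochondrial UMIs) was applied. Doublets were not removed, and an alternative left out the 5% deepest cells of each library.

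Cells were gated by summed marker UMIs. Artery ECs needed 3 UMIs and 25 per 10000 of 11 markers, capillary ECs 3 UMIs and 20 per 10000 of 7 markers with artery markers up to 15 and vein markers up to 10 per 10000, and vein ECs 3 UMIs and 15 per 10000. Endocardial cells needed 4 UMIs, mural cells 6 and all ECs 2 UMIs of their markers. UMI counts were summed per library and class and fitted over all genes with edgeR 4.0.16 (R 4.3.3; glmQLFit, filterByExpr, TMM, Benjamini-Hochberg adjustment, call at adjusted p under 0.05). Cells with and without a Cyp1a1 UMI were compared after thinning to 1000 UMIs, scaled by library totals, because TMM was biased in simulated data. Simulated data were used to test the diet fits of artery, capillary and mural cells and the artery to capillary comparison. The fits beside a Cyp1a1 UMI in artery and capillary ECs were tested likewise. The other comparisons were not. Intervals are 95% exact binomial or Poisson and cover counting error only, as do floors of 3 UMIs. Likeness used log2(CPM + 1) of genes with a mean of at least 20 CPM. Other tools were DESeq2 1.42.0, Python 3.11.15, numpy 2.4.6, scipy 1.17.1 and pandas 2.3.3.

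NC libraries 1 and 2 held 30387717 and 31517933 UMIs, HFpEF libraries 1 and 2 held 11163876 and 48003732. The members, gates and gene lists were chosen with earlier results of these data known. Named genes were the 6 members, listed pathway genes that were called or up to 6 a list, and the 6 genes most like Cyp1a1. Called genes beside Cyp1a1 were named after their values were seen. Values of 1 listed gene are not reported here, and it is still among the 43 in the counts. Alternatives changed the tool, filter, block, gate, depth and markers and left out each library in turn.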

Additional observations from a re-analysis of the deposited data

How the results depend on the processing

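Apart from the Cyp1a1 results given next, the members gave 38 results under 357 alternatives in all. Of these, 309 were counted as the same, 37 as moved and 11 as reversed. Without a test, the same means a move of less than the spread between libraries. Beside a Cyp1a1 UMI it means an unchanged sign and call, whatever the size of the move. Sign changes of values within the spread are counted as the same or as moved. For Cyp1a1 the difference between the diets kept its sign in each fit. With a stricter gate it was −8.08 in artery and −4.25 in capillary ECs, and with a library left out it ranged from −9.70 to −3.77 in artery ECs, −4.88 to −4.43 in capillary ECs and −4.62 to −2.21 in mural cells. Values of −8 and below rest on groups at 0 counts. The artery to capillary difference ranged from −0.17 to 0.57 with a library left out. Along the artery markers, the ratio of cells with 3 or 4 to cells with 0 (1.11) was 0.75 to 1.47 with a library left out and reversed to −1.12 with the conduit markers. That of 7 or more to 3 or 4 (−1.34) was −1.38 to −1.30 with a library left out, −0.90 and −1.75 at 500 and 2000 UMIs per cell, and −5.65 without the conduit markers, with 0 UMIs in its highest group. A group left with 1 library was assumed to vary like the other. The cause of these changes was not tested.

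Pathway genes called between the diets, with the number under DESeq2 first and without the count filter second, were 1 and 3 in artery ECs (main 0) and 4 and 7 in capillary ECs (main 0). Without the filter 1 was called in vein ECs (main 0), and DESeq2 called 1 in mural cells (main 2). Without the deepest cells 1 was called in artery, capillary and mural cells each, thinned to 1000 UMIs 1, 1 and 0, and with a stricter gate 1 in capillary and 1 in mural cells, as with all deposited cells in mural cells (1). Leaving out a library gave 0 to 4 in artery, 0 to 2 in capillary, 0 to 1 in vein and endocardial and 1 to 3 in mural cells. Of all genes, 1 to 275 were called in artery (main 10), 5 to 962 in capillary (17), 0 to 73 in vein (0), 0 to 22 in endocardial (0) and 3 to 189 in mural cells (79). Between artery and capillary ECs, 11 pathway genes were called, 5 with thinned cells and 9 to 10 with a library left out.

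The libraries of the diets share replicate numbers. Deviations of same-numbered libraries correlated at 0.05, 0.03, −0.06, 0.04 and 0.01 in artery, capillary, vein, endocardial and mural cells over 2 pairs. A correlation over all genes cannot show a pairing that touches few genes. The labels do not say what the numbers stand for, so a pairing could not be decided. With the replicate block, pathway calls were 1 in artery, 5 in capillary and 0 in mural cells, and edgeR's adjusted p was 0.0632 for Ptges3 and 0.165 for Hsp90aa1 in mural cells.

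Genes called beside a Cyp1a1 UMI in artery ECs (main 2) numbered 0 with DESeq2, 0 with TMM, 1 without the filter, 0 at 500 and 19 at 2000 UMIs, 1 in cells of high arterial level and 1 to 3 with a library left out. In capillary ECs (main 10) they were 2, 4, 6, 1 and 40 in the same order, and 3 to 12. TMM and the NC libraries alone were added after seeing the data. Beside Cyp1a1, Ahr in artery ECs reversed to −0.18 with TMM, −1.19 at 2000 UMIs and −0.85 at a high arterial level, ranged from −0.76 to 0.80 with a library left out, and reversed in capillary ECs to −0.38 at 500 UMIs. Arnt in artery ECs reversed to 0.12 with DESeq2. Tiparp reversed to 0.24 at 500 UMIs in artery ECs, and with a library left out it ranged from −8.09 to 0.76 in artery and −1.65 to 0.41 in capillary ECs. Rasl11a reversed to −0.57 at 2000 UMIs, Mgp to 1.53 and Cd34 to 0.025 at 500 UMIs, and Rbp7 to −0.067 with TMM. Between the diets, Ahr in artery ECs reversed to −0.16 with thinned cells and Tiparp in endocardial ECs ranged from −0.0058 to 0.34 with a library left out. Depth limits Ahrr, Cyp1b1 in ECs and the groups of most artery markers.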
